A study of Mus musculus with 2 samples.

Results

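SOX transcription factors share a DNA-binding domain, the HMG box, and are sorted into groups by how alike that domain is. SOX2 of group B1 maintains pluripotent stem cells and the basal cells of the airway, and its gene is often amplified in human lung squamous cell carcinoma (SCC). SOX4, SOX11 and SOX12 of group C act in progenitor cells, SOX9 of group E works with SOX5 and SOX6 of group D in cartilage, SOX21 of group B2 counters SOX2-type factors, and SOX15 of group G is found in epithelial and muscle progenitors. Sox2ot is a long noncoding RNA whose gene spans Sox2.

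The 9 SOX genes and Sox2ot described here are 10 of the 20679 genes, and 35 of the 45101 probe sets, covered by a comparison of 2 mouse lung SCC lines. Probe sets were taken by the gene symbol in the deposited table. The genes were chosen by name with the fold changes of this same comparison known, and they are not all SOX genes on the array, so every value below is a description and no test was run. The line titled S1 is read as KALLU+, sorted as Sca1-high and CD24-negative, and the line titled S2 as KALLU-, sorted as Sca1-low and CD24-positive. Both came from KALLU, a parental cell line that was made from a lung SCC of KA/KA mice. These mice carry kinase-dead Ikkα on an FVB background, so both lines share that allele, and each stands for a sorted part of a single parental line. They were grown alike in serum-containing DMEM with no treatment. Total RNA was read on the Affymetrix Mouse Genome 430 2.0 array, and the labels give 1 sample per line.

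The deposited value of a probe set is a fold change between S1 and S2 whose sign is positive where S1 was the higher line and negative where S2 was. No signals, detection calls, p-values or values per sample accompany it. From these fold changes alone, neither the level of a gene in either line nor an error between samples can be given. The number of arrays behind a value is unknown. The sizes were turned into log2 values that kept the sign. For each gene the median of its probe sets is given. Of the sorting markers, all 3 probe sets of Cd24a were lower in S1, with log2 values from -5.96 to -5.31. Ly6a, which encodes Sca1, was also lower in S1 at its 1 probe set (log2 -2.57), against the label of that line. Each direction below therefore rests on the deposited column heading, and S1 is called the line labelled KALLU+. As a measure of scatter in dim probe sets, 79 probe sets for olfactory or vomeronasal receptors, assumed to be silent in both lines, lay between -0.55 and 0.38. This range is called the receptor range. The 24 probe sets for the bacterial poly-A control RNAs had a median of -0.45. Centring on them raises every log2 value, and the median of all genes, by that amount. Any value between -0.45 and 0 then changes sign, and any value between -1.45 and -1 is no longer past 2-fold. Values not far below 1 in turn pass 2-fold upward. Of the 35 probe sets described here, 8 and not 6 are then at least 2-fold higher. Calls at 2-fold below are without this centring unless it is named.

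By their medians, 3 of the 10 genes (Sox2, Sox11 and Sox2ot) passed 2-fold toward the line labelled KALLU+ and 0 passed it in the other direction. Over all genes the shares were 4.69% in the higher and 5.08% in the lower direction. Among the 35 probe sets, 6 passed 2-fold upward and 1 downward, beside 6.73% and 4.72% of all probe sets. Since the list was chosen from this comparison, nothing is read from these shares. Sox2, Sox11 and Sox2ot account for all 6 of the higher probe sets. The other 7 genes had 28 probe sets, of which 22 lay inside the receptor range, as did 70.6% of all probe sets. The median over the 10 genes was 0.03 on the log2 scale, against -0.04 over all genes.

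**Figure D1:**
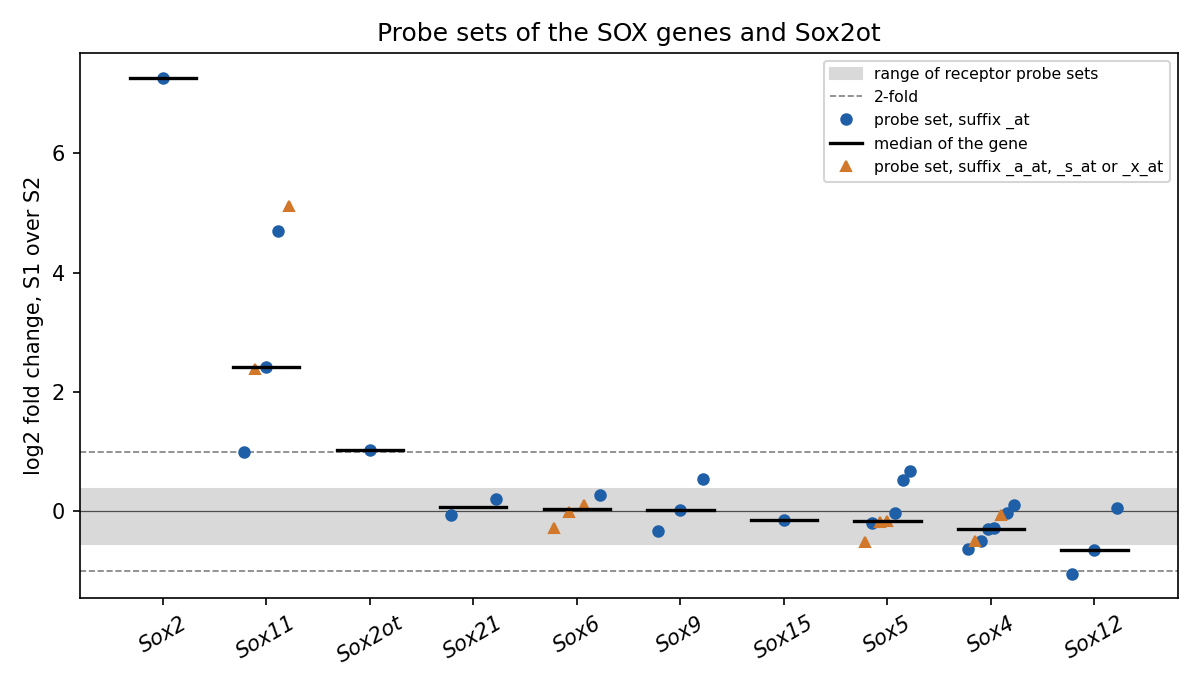
Log2 fold change of S1 (labelled KALLU+) over S2 (labelled KALLU-) for each of the 35 probe sets (points), with genes ordered by their median (black bars); triangles have the suffix _a_at, _s_at or _x_at, the grey band is the receptor range and dashed lines mark 2-fold. Sox2 sits at 7.27, the 5 probe sets of Sox11 spread from 1.00 to 5.12, and 7 of the 10 genes have medians between -0.65 and 0.07.

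The promoters of Sox2 and Sox11, the members with the highest values, are shown with those of Sox4 and Sox12, the other members of group C. Each is the 250 bases before the RefSeq start in GRCm38.p6, written 5′ to 3′ along the gene. Capitals mark any match to the SOX-type motifs ACAAT or ACAAAG on either strand. The Sox2 stretch is chr3:34649745-34649994 on the plus strand. On the minus strand lie those of Sox11 (chr12:27342719-27342968), Sox4 (chr13:28953700-28953949) and Sox12 (chr2:152398047-152398296).
Sox2: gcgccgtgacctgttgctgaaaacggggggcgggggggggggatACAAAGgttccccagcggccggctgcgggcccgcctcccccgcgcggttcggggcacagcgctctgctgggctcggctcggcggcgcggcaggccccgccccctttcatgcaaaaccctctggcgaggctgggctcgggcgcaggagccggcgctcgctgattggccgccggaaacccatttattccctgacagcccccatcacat
Sox11: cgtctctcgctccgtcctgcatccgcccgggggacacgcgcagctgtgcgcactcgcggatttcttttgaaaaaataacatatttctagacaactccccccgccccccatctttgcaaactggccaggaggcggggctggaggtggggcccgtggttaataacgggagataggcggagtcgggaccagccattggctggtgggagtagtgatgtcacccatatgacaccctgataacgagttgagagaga
Sox4: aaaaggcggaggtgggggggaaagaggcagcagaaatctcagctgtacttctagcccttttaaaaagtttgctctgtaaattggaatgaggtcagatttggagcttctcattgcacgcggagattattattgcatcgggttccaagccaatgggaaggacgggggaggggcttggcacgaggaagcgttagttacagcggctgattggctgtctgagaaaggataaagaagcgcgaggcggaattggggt
Sox12: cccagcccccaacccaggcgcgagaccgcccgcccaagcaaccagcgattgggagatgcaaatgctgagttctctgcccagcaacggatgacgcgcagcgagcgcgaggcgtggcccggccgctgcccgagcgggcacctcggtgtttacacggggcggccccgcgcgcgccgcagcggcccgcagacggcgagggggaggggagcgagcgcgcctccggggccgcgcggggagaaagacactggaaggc

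The Sox2 stretch held 1 match, an ACAAAG whose first base lies 206 bases before the start, and the other 3 stretches held neither motif. RefSeq's table gave 13 promoters for 8 of the 10 members. Of these 13 promoters, 6 of them of Sox6, 5 held ACAAT and 6 held ACAAAG. By gene, 3 of the 8 members had a promoter with ACAAT and 2 had one with ACAAAG, so the promoter counts weigh Sox6 most. Among all 32851 promoters of that length, 27.7% held ACAAT and 16.5% held ACAAAG. In base composition the stretches of Sox2 and Sox12 were alike, with a G+C content of 72.0% and 74.4%, and those of Sox11 and Sox4 were lower, at 58.0% and 50.8%, against a median of 52.4% over all promoters. By their fold changes, described next, Sox2 and Sox12 stood at opposite ends of the members. A relation between base composition and fold change was not tested.

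Sox2 was read by 1 probe set, 1416967_at, which the authors' table gives as 154-fold higher in the line labelled KALLU+ (log2 7.27). This was the fourth highest of the 45101 probe sets, and by medians only 1 of the 20679 genes was higher. No second probe set of Sox2 is there to set beside it. With no level given, a fold of this size does not say whether the transcript was near background in the line labelled KALLU-.

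Sox2ot was likewise read by 1 probe set, 1460587_at, at a signed fold change of 2.03 (log2 1.02, percentile 95.5 of all genes). RefSeq places Sox2 within the span of Sox2ot, so the genes overlap. Both were higher in the line labelled KALLU+, and the log2 values were 7.27 for the coding gene and 1.02 for the noncoding one. Only 2.03-fold separated the lines at Sox2ot, just past the 2-fold line.

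Sox11, a factor of neuronal and other progenitors, was higher at all 5 of its probe sets, and 4 of them passed 2-fold. The lowest was 1453002_at with a signed fold change of 2.00 (log2 1.00), which before rounding is just under 2-fold. On the poly-A controls it was past 2-fold, at 1.44. In the middle, 1429051_s_at and 1429372_at gave 5.22 and 5.32. The highest were 1453125_at at 26.1 and 1436790_a_at at 34.7. The probe sets therefore formed 3 levels, on the log2 scale at 1.00, at 2.38 and 2.41, and at 4.71 and 5.12. The median was 2.41 (percentile 99.5), and 98 genes ranked above it. The distance from lowest to highest was 4.12 on the log2 scale, and among the 480 genes with 5 probe sets only 3 had a larger one, with a median of 0.92. All 5 agree on the direction of Sox11, but its size depends on which probe set is read, and what parts of the transcript they read was not tested here.

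Sox4, the group C gene read by the most probe sets, differed from Sox11 in sign without the poly-A centring, which turned its median to 0.15. Without that centring Sox4 was lower at 7 of its 8 probe sets. Its log2 values ran from -0.63 at 1419156_at to 0.10 at 1443778_at, with a median of -0.30. All but the lowest lay inside the receptor range. The 8 values were close together, with a distance of 0.73 from lowest to highest, against a median of 0.97 over the 33 genes with 8 probe sets. The highest value of Sox4, 0.10, was below the lowest of Sox11, 1.00, so the probe sets of these 2 genes did not overlap.

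Sox12, the third gene of group C, had the lowest median of the members, -0.65 (percentile 9.96). Its probe sets were apart, at signed fold changes of -2.07 for 1455562_at, -1.57 for 1439754_at and 1.04 for 1456882_at. The first of these was the only member probe set at least 2-fold lower, and at -0.60 on the poly-A controls it was no longer past 2-fold. The group C genes thus lay on both sides of 0, with medians of 2.41, -0.30 and -0.65.

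Of the group D genes, Sox5 was read by 7 probe sets from -0.51 to 0.67 on the log2 scale, with a median of -0.17. The highest were 1455535_at at 0.67 and 1432190_at at 0.52, both above the receptor range, while the other 5 were below 0. Its probe sets thus gave both directions, and the median without the suffixes _a_at, _s_at and _x_at was 0.25. Sox6 lay within the receptor range at all 4 probe sets, from -0.28 to 0.27, with a median of 0.04. Neither gene had a probe set changed at least 2-fold, though on the poly-A controls 1455535_at of Sox5 passed it upward, at 1.11.

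Sox9, a factor of cartilage and of airway and hair follicle progenitors, had values of -0.33 at 1433889_at, 0.01 at 1451538_at and 0.54 at 1424950_at, with a median of 0.01. Only the highest left the receptor range. Sox21, the group B2 relative of Sox2, was at -0.06 and 0.21 with a median of 0.07, so the value of Sox2 was not shared by its closest relative on the list. Sox15 had a log2 value of -0.16 at its 1 probe set, 1452017_at. On the poly-A controls Sox4, Sox5 and Sox15 came out above 0, at 0.15, 0.27 and 0.29.

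In the order of medians, Sox2 stood 4.86 above Sox11 on the log2 scale, and no probe set of Sox11 reached it. Sox11 and Sox2ot overlapped, since the lowest probe set of Sox11 (1.00) was just below that of Sox2ot (1.02). Sox2ot in turn stood 0.95 above Sox21 without overlap. From Sox21 down through Sox6, Sox9, Sox15, Sox5 and Sox4 to Sox12, each neighbouring pair overlapped in the range of its probe sets and differed by at most 0.35 in median. Of the 21 pairs among these 7 genes, 1 did not overlap (Sox21 above Sox15), and the highest and lowest medians were 0.72 apart. Pooled over the 9609 genes with 2 or more probe sets, the SD between probe sets of a gene was 0.49, which is the spread between probes and not between samples.

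**Figure D2:**
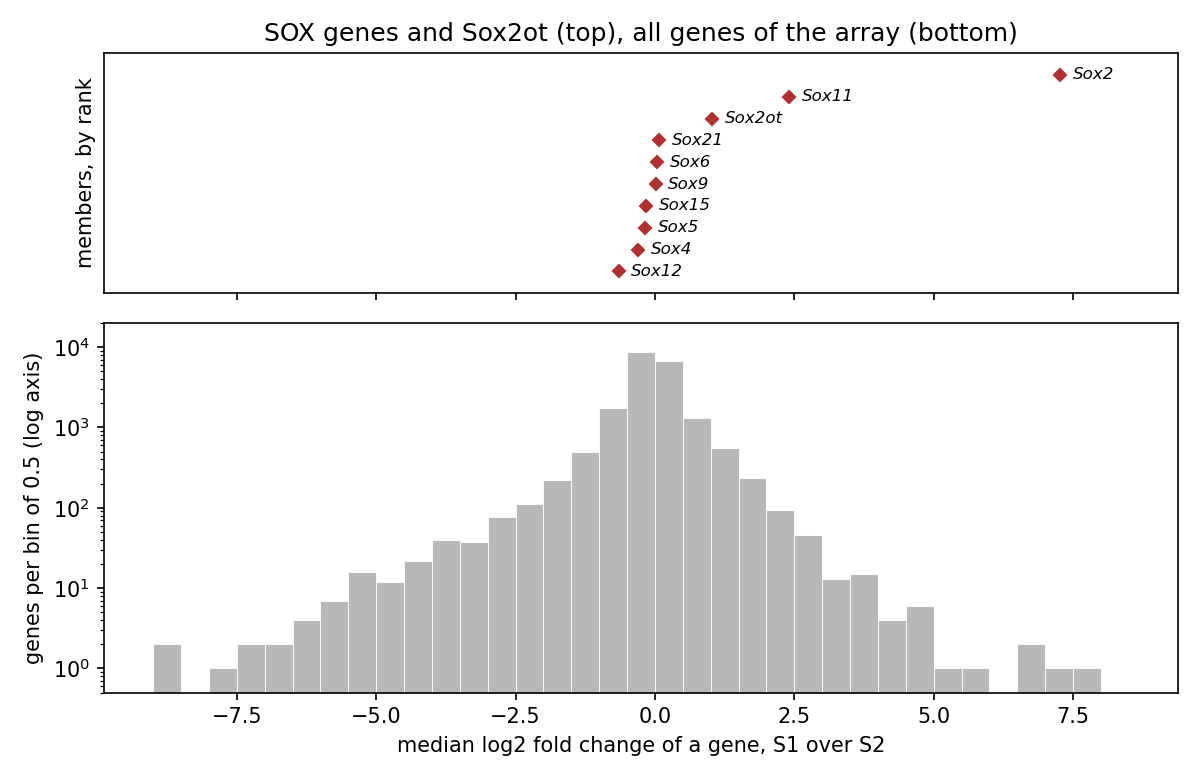
Median log2 fold change of S1 over S2 for the 10 members (top, diamonds, by rank) and the number of genes in each bin of 0.5 over all 20679 genes (bottom, log axis). Sox2 and Sox11 lie in the upper tail, Sox2ot near its start, and the other 7 in the central bins.

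Outside the list, the array read 11 further SOX genes by 18 probe sets. Their median was -0.04, the same as over all genes to this precision. Inside the receptor range lay 16 of the 18 probe sets, beside 70.6% of all probe sets. The exception in size was Sox7, a factor of endothelial development, whose pair of probe sets disagreed, with signed fold changes of -5.15 at 1416564_at and 1.20 at 1432495_at. Sox13, the third gene of group D, had a log2 value of -0.57 at its 1 probe set. The group B1 relatives of Sox2 did not share its value, with medians of -0.16 for Sox1 and -0.18 for Sox3. In group E beside Sox9, Sox10 was at 0.00 and Sox8 at 0.25. Over the 20 SOX genes in all, the medians of 2 (Sox2 and Sox11) passed 2-fold upward and that of 1 (Sox7, at -1.05) downward. Over all genes the shares were 4.69% upward and 5.08% downward. Of the 20, 10 were above 0 and 10 below, beside 8980 above and 11627 below of all 20679 genes. Relative to the poly-A controls, the 11 further genes had a median of 0.40, and Sox7 at -0.60 was no longer past 2-fold. On that scale 17 of the 20 SOX genes were above 0 and 3 below. The median of all genes also rises above 0 there, so nothing is read from this split.

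The genes next to each member were read to see whether a value was shared along the chromosome, taking the 3 nearest measured genes on either side in RefSeq's gene order. Around Sox2 and Sox2ot on chromosome 3, most neighbours were higher in the line labelled KALLU+. Before Sox2 came Fxr1, which encodes an RNA-binding protein, at a log2 median of 1.47 over 5 probe sets that were each above 1, and Ccdc39, a gene of motile cilia, at -0.13. After it came Atp11b, a phospholipid flippase, at 1.48 with 1 probe set, Dcun1d1, which promotes cullin neddylation, at 1.61 with probe sets from 0.07 to 1.75, and Mccc1, a mitochondrial carboxylase subunit, at 0.26. The next gene out on the side of Sox2ot, Ttc14, was at 1.39 over 10 probe sets, none of them below 0.66. Of these 6 genes, 4 passed 2-fold upward and 0 downward, beside 4.69% and 5.08% of all genes. The value of Sox2 stood 5.66 above the highest of these 6 on the log2 scale. No DNA was measured.

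The values around Sox11 on chromosome 12 differed from those around Sox2. The 6 neighbours of Sox11 (Cmpk2, 4933409F18Rik, Gm9866, Dcdc2c, Allc and Colec11) had medians between -0.37 and 0.45, and none was changed at least 2-fold. All of these medians but that of Cmpk2 lay inside the receptor range, where silent genes would also lie. With no levels given, these neighbours cannot show whether the value of Sox11 was shared along the chromosome. Around Sox12, 2 of 6 neighbours were at least 2-fold lower, Zcchc3 at -2.12 and Trib3 at -1.33 (the latter within 2-fold on the poly-A controls), and 5 of 6 were below 0. Counting every neighbour of every member once, 54 genes had a median of -0.06, with 4 past 2-fold upward, which are the 4 around Sox2 and Sox2ot, and 4 downward. The shares over all genes were 4.69% upward and 5.08% downward.

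**Figure D3:**
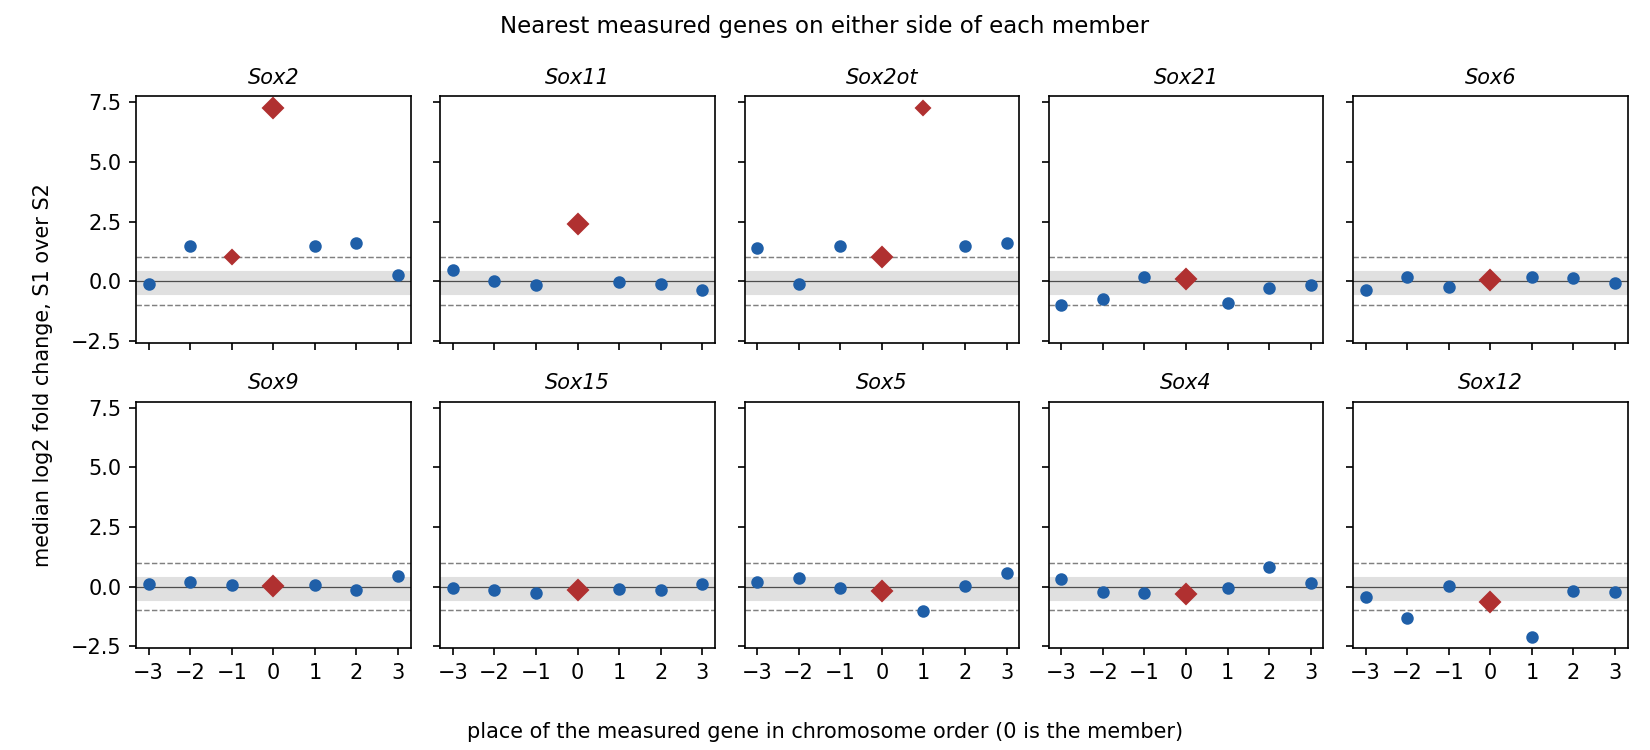
Median log2 fold change of S1 over S2 for each member (large red diamond at place 0) and the 3 nearest measured genes on either side (blue points; small red diamonds are other members); the grey band is the receptor range and dashed lines mark 2-fold. The neighbours of Sox2 and Sox2ot lie mostly above the upper line, those of Sox11 between both lines.

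Genes that work with or under SOX factors were read from lists. Of 12 partners and targets of SOX2, 1 passed 2-fold upward and 0 downward, beside 4.69% and 5.08% of all genes. The list median was 0.05. The 1 past 2-fold was Klf4, a reprogramming factor that acts with SOX2, at log2 values of 3.01 and 3.78. The pluripotency partners were at 0.19 for Pou5f1 and 0.13 for Nanog, and the squamous partner Trp63, which marks basal cells, was at -0.09 over 4 probe sets, all inside the receptor range. Nes, an intermediate filament gene of neural progenitors, had probe sets at 0.74, 0.87 and 1.09. Klf4 apart, the medians of the list thus stayed within 2-fold. On the poly-A controls the median of Nes, 0.87 before that shift, passed 2-fold upward too.

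Of 8 targets of group C factors, 0 passed 2-fold upward and 1 downward, beside 4.69% and 5.08% of all genes. The list median was 0.14. The 1 downward was Dbn1, an actin-binding protein of neurons, at -1.95 and, just past 2-fold, at its other probe set. The neuronal targets Tubb3 and Dcx were at -0.21 and 0.12, and Tead2, a partner of YAP, was at 0.17. Map2, at a median of 0.61 with probe sets at -0.20 and 1.41, passed 2-fold upward on the poly-A controls. Of 12 cartilage targets of SOX9, SOX5 and SOX6, none was changed at least 2-fold. Their medians lay between -0.38 for Matn3 and 0.34 for Col2a1, all inside the receptor range. With no levels given, silent genes cannot be told from unchanged ones here. The median of this list was -0.01, which centring on the poly-A controls turned to 0.43. The list medians are close to the -0.04 of all genes.

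Among 7 HMG-box factors outside the family, which bind related DNA, the median was 0.03. Tcf7l1, a repressor of WNT target genes, was at least 2-fold lower by its median of -1.30, with probe sets at -1.86 and -0.75, but on the poly-A controls its median was -0.86, within 2-fold. Bbx was higher at all 5 of its probe sets, with a median of 0.94, just under 2-fold and past it on the poly-A controls.

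**Figure D4:**
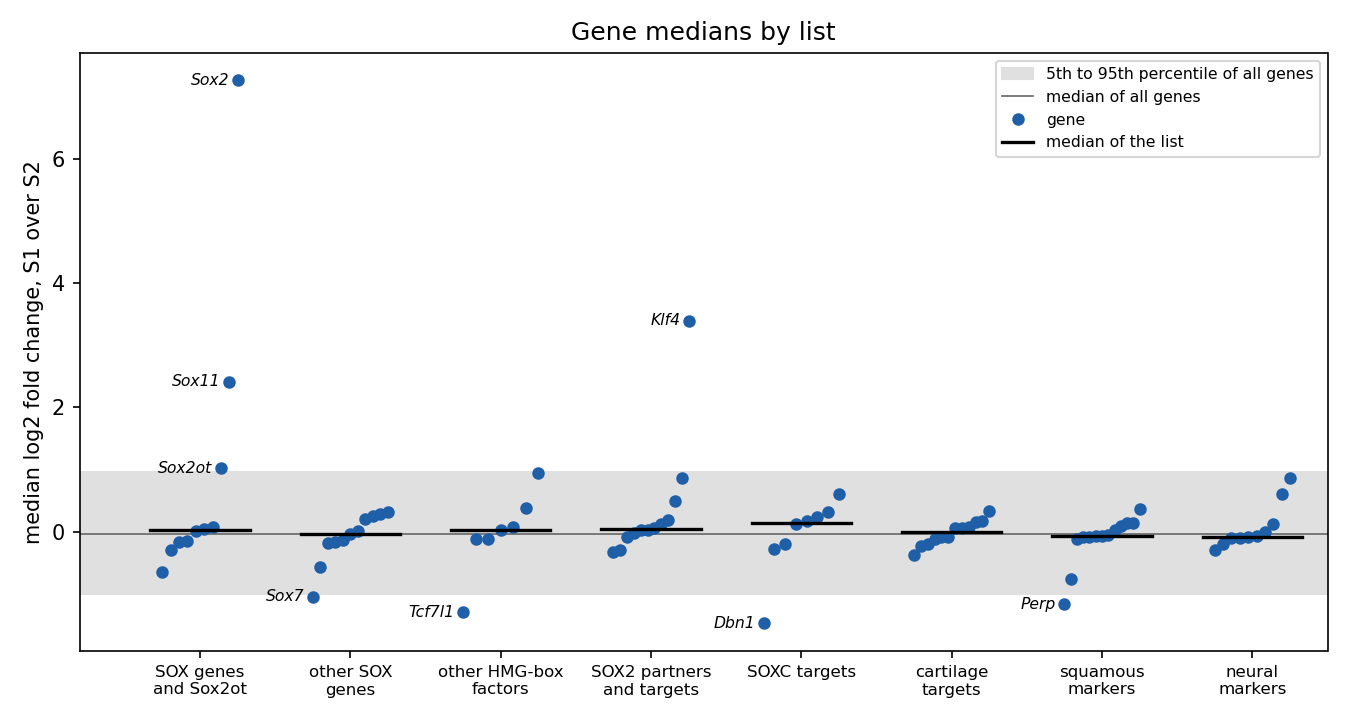
Median log2 fold change of S1 over S2 for each gene (points) of the members, the other SOX genes, other HMG-box factors, lists of SOX partners and targets, and squamous and neural markers; black bars are list medians, the grey band spans the 5th to 95th percentile of all genes (-1.01 to 0.95), and genes at least 2-fold changed are named. Every list median lies within 0.19 of that of all genes, and Sox2, Sox11 and Klf4 stand well above the band.

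Markers of cells that express SOX genes were read as a check of the labelled tissue, though fold changes cannot show whether a marker is present. Of 14 squamous and basal markers 13 were measured, with a median of -0.07. Of these 13, 5 were above 0 and 8 below. Perp, a desmosome-associated gene, was at least 2-fold lower at -1.17. Ivl had a median of -0.76, with probe sets at -1.18 and -0.33. Krt14 had the highest median of the 13, 0.36, and Krt5, Krt15 and Cdh1 were at -0.07, 0.03 and -0.07. The 10 neural markers had medians from -0.29 to 0.87, the 5 cartilage markers from -0.35 to 0.34 and the 8 immune markers from -0.44 to 0.19, with no gene changed at least 2-fold. Of 7 Schwann cell and melanocyte markers, Mitf was lower at a median of -1.05, but its probe sets were apart, at -1.69 and -0.41. The second of these lay inside the receptor range. The 14 mesenchymal markers went both ways, with Twist1 higher at 1.14 and Snai1, Cdh11 and Pdgfrb lower at -1.90, -5.44 and -1.16, and Fap lower too. On the poly-A controls Perp, Mitf and Pdgfrb were within 2-fold, at -0.72, -0.60 and -0.71. The same shift took Nes and Map2 of the neural markers and Cdh2 of the mesenchymal markers past 2-fold upward. The part of other cell types in the values of Sox2 and Sox11 was not tested.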

How the data were processed

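Total RNA of cultured KALLU+ and KALLU- cells was labelled and hybridised by the authors to Affymetrix Mouse Genome 430 2.0 arrays, which were analysed in Partek Genomics Suite. The submitters' processing notes name MAS5 without its role; background correction and normalization are not given in the sources used here. The deposited table holds 1 signed fold change per probe set, the authors' own comparison of S1 with S2, the only processed table analysed here; scanner files were not used here. It has no signals or p-values, so no test was made and depth is unknown. Genes are medians of log2 values over probe sets that name them alone; 5797 probe sets name no gene and 1280 several. Probe sets ending in _s_at or _x_at can read other genes, and _a_at several transcripts of a gene.

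Members and lists were chosen with earlier results of these data known. The rule for named genes was every member with every probe set, then genes of each list whose probe sets all changed at least 2-fold one way, at most 8 a list, and the neighbours of Sox2, Sox2ot and Sox11; other genes were named after their values were seen. Listed genes were matched by symbol, 4 list entries by an older symbol in RefSeq's table for GRCm38.p6. That table gave gene order, and RefSeq also the promoters. Steps were tested on simulated data. Python 3.11.15, numpy 2.4.6, pandas 2.3.3 and matplotlib 3.10.9 were used.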

Additional observations from a re-analysis of the deposited data

How the results depend on the processing

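Single genes were called moved when they changed by more than 0.49 on the log2 scale, the SD between probe sets of a gene. Taking the probe set with the largest change moved 3 of the 10 members (Sox11 to 5.12, Sox5 to 0.67 and Sox9 to 0.54) and turned Sox6 to -0.28. Leaving out the suffixes _a_at, _s_at and _x_at, centring on all probe sets, and counting probe sets that name several genes moved none by that much, though Sox5 turned to 0.25 without the suffixes, and genes read by 1 probe set cannot move under a rule over probe sets. The poly-A centring adds 0.45 to every gene, less than that SD, so it could move none by this measure, but it changed the sign of Sox4, Sox5 and Sox15. The 6 probe sets at least 2-fold higher ranged from 4 to 8 over thresholds, suffixes and centrings, and by genes were 3, since fewer genes than probe sets are counted. The 1 at least 2-fold lower became 3 at 1.5-fold and 0 at 4-fold, on the poly-A controls and by genes. The medians of the members, the other SOX and HMG-box genes and the 3 target lists, the only lists recomputed, moved by less than that SD under the other 4 alternatives and by 0.45 on the poly-A controls. The planned comparison of SOX proteins was not run. No paired analysis was possible because each line is 1 sample and only their fold changes were given. Every value rests on the authors' comparison of 1 sample per line, with unknown signal over background.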
